A study of Mus musculus with 12 samples.

Results

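The genes described here are 8 leukocyte adhesion receptors: the integrin chains Itgae, Itgb7, Itga4, Itgb1, Itgal and Itgb2, the hyaluronan receptor Cd44 and the selectin ligand Selplg. They were chosen by name, with earlier results of these data known, from the 18193 mouse genes that had a probe set in the deposited values. Each was read from its brightest probe set, by mean log2 on all 12 arrays. Together they had 22 probe sets, of which 15 passed the filter. All 8 were among the 12797 genes that passed the filter on low values and were tested. Cells were compared from BALB/c mice and from mice with leukaemia or lymphoma driven by ZMYM2-FGFR1, a fusion of a zinc finger protein to the kinase domain of a growth factor receptor. The DP thymocytes (3 arrays) were Thy1+ CD4+CD8+ cells sorted from normal BALB/c thymus, with 3 mice pooled in each sample. The T lymphoma group (4 arrays) came from diseased recipients of the third serial transplant, in which most cells were GFP+Thy1+DP+; lymphomas 1 to 3 were not sorted and lymphoma 4 was sorted for GFP+Thy1+DP+ cells. The hematopoietic stem cells, HSC (2 arrays), had the phenotype Lin-Sca-1+c-kit+ and were isolated from bone marrow pooled from 5 normal female BALB/c mice. The leukaemic stem cells, LSC (2 arrays), carried GFP and the same Lin-Sca-1+c-kit+ phenotype, and came from bone marrow or spleen of 2 to 3 leukaemic mice. ZNF112 is a cell line with 1 array, whose origin the labels do not give. The labels give no age for any group and no strain for the leukaemic mice.

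Integrins are surface receptors built from 1 alpha and 1 beta chain, and a chain reaches the surface only with a partner. Leukocytes roll on endothelium through selectins and their ligands, then arrest and migrate through integrins that bind receptors of the immunoglobulin superfamily, cadherins or matrix. In the thymus the same receptors hold developing T cells to epithelium, and in bone marrow they keep stem cells in contact with stroma. Itgae encodes CD103, the alpha E chain. With Itgb7 it forms an E-cadherin receptor, a mark of lymphocytes within epithelia, and CD103 is used below for this pair. Itga4 pairs with Itgb1 to bind VCAM1 and fibronectin or with Itgb7 to bind MAdCAM1, and Itgal pairs with Itgb2 as LFA-1, which binds the ICAMs.

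The 250 bases before the RefSeq start site (mouse build GRCm38.p6) were at hand for 4 of the 8 genes: Itgb7, Itga4, Itgb1 and Cd44. They are shown for the 3 of them whose signals differed most in the comparisons below: Itgb7, higher in T lymphoma than in DP thymocytes, and Itga4 and Cd44, both lowest in the ZNF112 line. Each runs 5′ to 3′ in the direction of its gene, and capitals mark every match, on either strand, to 5 searched motifs: the GC box GGGCGG, the RUNX core TGTGGT, the ETS core AGGAAG, the STAT element TTCNNNGAA and the CSL core TGGGAA. Itgb7 lies on the minus strand (chr15:102231936-102232185), Itga4 on the plus strand (chr2:79255176-79255425) and Cd44 on the minus strand (chr2:102901666-102901915).
Itgb7: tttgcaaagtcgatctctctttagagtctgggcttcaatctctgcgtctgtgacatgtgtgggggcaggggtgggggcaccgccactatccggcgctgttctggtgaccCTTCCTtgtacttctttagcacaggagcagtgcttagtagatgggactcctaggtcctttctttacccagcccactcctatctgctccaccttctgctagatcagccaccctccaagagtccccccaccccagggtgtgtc
Itga4: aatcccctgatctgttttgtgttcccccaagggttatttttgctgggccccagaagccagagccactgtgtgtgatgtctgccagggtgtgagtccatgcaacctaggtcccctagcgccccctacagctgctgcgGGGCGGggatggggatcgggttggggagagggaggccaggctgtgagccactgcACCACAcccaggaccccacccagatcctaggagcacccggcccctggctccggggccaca
Cd44: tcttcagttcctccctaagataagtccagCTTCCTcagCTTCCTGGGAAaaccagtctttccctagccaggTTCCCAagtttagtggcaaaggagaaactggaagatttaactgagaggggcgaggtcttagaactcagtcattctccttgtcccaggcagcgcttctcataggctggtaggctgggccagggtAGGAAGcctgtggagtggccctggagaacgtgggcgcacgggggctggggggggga
The Itgb7 window held 1 ETS match, on the reverse strand and 136 bases before the start. The Itga4 window held 1 GC box 109 bases before the start and 1 RUNX match on the reverse strand 55 bases before it. The Cd44 window held 3 ETS matches, the nearest 51 bases before the start, and 2 CSL matches, and 1 ETS and 1 CSL match shared bases. No motif was found in both Itga4 and Cd44, the pair that was low in the cell line. Among 32851 mouse promoters of the same length, 32.7% held the GC box, 14.0% the RUNX core, 29.5% the ETS core, 7.02% the STAT element and 21.6% the CSL core. These matches describe letters in these windows, and no binding was measured here.

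Array medians lay between 99.2 and 109 intensity units for the arrays of DP thymocytes, lymphomas and the line (called the T cell side) and between 44.2 and 46.0 for those of HSC and LSC (the stem cell side), so differences were tested within a side. Replicates were closest in DP thymocytes, with a root mean square SD over genes of 0.153 log2 units, and widest in LSC (1.02). The ratio of 3′ to 5′ actin signal, a sign of RNA or amplification quality, was 2.18 to 2.23 in DP thymocytes, 2.44 to 3.69 in T lymphoma, 2.60 in the line, 3.91 to 5.79 in HSC and 9.82 to 13.6 in LSC. T cell markers were high in the lymphomas (mean log2 of 10 markers, 12.07 to 12.58) and in DP thymocytes (13.04 to 13.21). In LSC the same markers had means of 8.46 and 10.21 against 6.26 and 5.45 in HSC. The 6 stem cell markers had means of 8.29 and 7.08 in LSC against 9.84 and 10.29 in HSC. On both LSC arrays the T cell mean was thus above, and the stem cell mean below, those of HSC. Not every marker followed its mean. Of the stem cell markers, Mecom, Hlf, Meis1 and Procr were lower on both LSC arrays than in HSC, and Kit overlapped. Slamf1 was higher, at 8.7 and 9.95 in LSC against 7.61 and 8.45 in HSC. Of the T cell markers, only Cd4 overlapped between LSC and HSC. Macrophage markers were at 10.61, 9.32 and 9.45 in the unsorted lymphomas (mean log2 of 12 markers), but at 6.25 in the sorted lymphoma, 6.34 in the line and 6.31 to 6.38 in DP thymocytes. These are bulk samples, in which fewer cells of a type and less RNA per cell cannot be told apart.

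**Figure D1:**
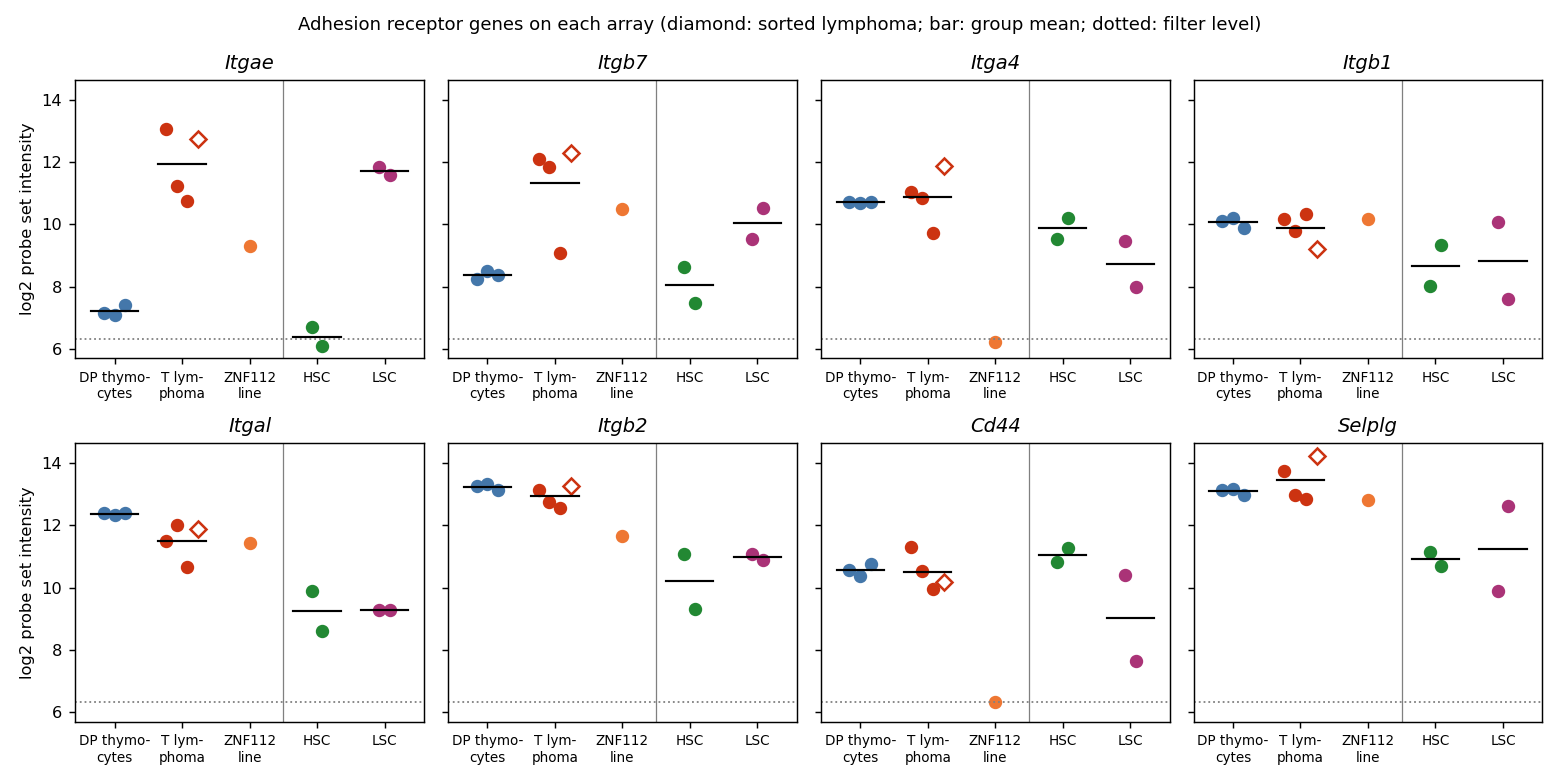
Log2 probe set intensity of the 8 genes on each of the 12 arrays, by group; bars are group means, diamonds the sorted lymphoma, and the dotted line the filter level of 6.33. The vertical line parts the T cell side from the stem cell side, whose array medians differ; Itgae is high in every T lymphoma and LSC array and low in DP thymocytes and HSC, while Itga4 and Cd44 are near the filter level in the ZNF112 line.

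The first comparison asked how the tumour cells differ from normal cells of the same surface phenotype. Itgae and Itgb7, the 2 chains of CD103, rose in T lymphoma, and the other 6 genes did not pass the test. Thus 2 of the 8 genes were called, both higher (limma, Benjamini-Hochberg adjusted p under 0.05), where 6.55% of all tested genes were called and 3.37% were called higher. Because the genes were chosen with earlier results of these data known, such shares, here and below, are background and do not test the genes as a set. Itgae, the alpha chain found only in CD103, had log2 intensities of 7.14, 7.08 and 7.40 in DP thymocytes and of 13.04, 11.24, 10.73 and 12.73 in lymphomas 1 to 4. Every lymphoma lay above every thymocyte sample by more than 3 log2 units, and the sorted lymphoma was the second highest. The difference was 4.73 ± 0.52 (SE, n = 4 and 3), or 26.6-fold (limma, adjusted p = 0.000828). An exact two-sided permutation test over these 7 arrays gave p = 0.0286, the smallest it can give. The Itgae call held in all 20 alternative analyses, with differences from 4.36 to 5.53.

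Itgae was read by a second probe set with the same pattern. That probe set rose by 4.85 ± 0.66 in T lymphoma (limma over 27957 probe sets, adjusted p = 0.00261), where 7.45% of all tested probe sets were called. Itgb7, the beta chain that Itgae needs at the surface, had a single probe set. Its values were 8.23, 8.50 and 8.38 in DP thymocytes and 12.08, 11.82, 9.09 and 12.27 in lymphomas 1 to 4. The groups did not overlap, but lymphoma 3 lay far below the other lymphomas and closest to the thymocyte samples. The difference was 2.94 ± 0.72 (SE, n = 4 and 3), or 7.69-fold (limma, adjusted p = 0.0419), with an exact permutation p of 0.0571 against a smallest possible 0.0286. Without lymphoma 3 it was 3.69 (limma, adjusted p = 0.000782). The call was lost without any 1 of the other 6 arrays (DP thymocytes 1, 2 or 3 and lymphomas 1, 2 or 4), with differences of 2.63 to 3.01 and limma adjusted p from 0.0553 to 0.158.

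In both CD103 chains lymphoma 3 was the lowest of the 4 lymphomas. It was also the lowest for Itga4 (9.73), Itgal (10.65), Itgb2 (12.55), Cd44 (9.97) and Selplg (12.84), but the highest for Itgb1 (10.33). Its 3′ to 5′ actin ratio (3.69) was the highest of the 4, and the part of RNA quality in these values was not tested. B cell markers stood apart on the same array, at 8.97 against 6.09 to 6.80 in the other lymphomas and 6.48 to 6.52 in DP thymocytes (mean log2 of 7 markers), and their part in the low values was not tested. The sorted lymphoma had Itgae at 12.73 and Itgb7 at 12.27 with macrophage markers at 6.25, stroma and endothelium markers at 6.01 and dendritic cell markers at 6.16 (mean log2 of 12, 9 and 5 markers). Of these markers, 6 of the 12 macrophage genes and 6 of the 9 stroma and endothelium genes were under the filter level on that array. DP thymocytes had the same 3 lists at 6.31 to 6.38, 6.01 to 6.13 and 6.18 to 6.19. On lymphomas 1 to 3 the macrophage markers reached 9.32 to 10.61, the stroma and endothelium markers 8.91 to 9.91, the dendritic cell markers 6.61 to 6.83 and the NK and cytotoxic markers 6.77 to 9.09. Epithelium markers (mean log2 of 4) were at 7.46 on the sorted array, 7.21 to 8.65 on the unsorted lymphomas and 6.78 to 6.92 in DP thymocytes. Of these 4, Epcam, a surface adhesion protein, was at 12.07 on the sorted array, 10.25 to 12.42 on lymphomas 1 to 3 and 6.30 to 6.86 in DP thymocytes. Its part in the CD103 values was not tested. Krt8, Krt18 and Krt5, the rest of the list, were lower on the sorted array (5.70, 5.52 and 6.57) than in DP thymocytes. The latter had them at 6.79 to 7.11, 6.56 to 6.81 and 6.94 to 7.14, and lymphomas 1 to 3 at 5.77 to 8.12, 5.67 to 7.36 and 6.69 to 6.80. For Itgae and Itgb7 the sorted array was thus within or above the range of the unsorted ones, with macrophage, stroma and dendritic cell markers near the levels of thymocytes.

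Neither chain of LFA-1 passed the test. Itgal, its alpha chain, had values of 12.40, 12.34 and 12.39 in DP thymocytes and 11.48, 12.01, 10.65 and 11.87 in lymphomas 1 to 4. Every lymphoma lay below every thymocyte sample, but the difference of -0.87 ± 0.37 (SE; 95% interval -1.71 to -0.03) did not pass (limma, adjusted p = 0.206). It passed with array weights (limma, adjusted p = 0.0258). A second Itgal probe set was at -1.44 ± 0.42 (limma, adjusted p = 0.0704). Itgb2, the beta chain of LFA-1, was at 13.25, 13.34 and 13.13 in DP thymocytes and at 13.13, 12.76, 12.55 and 13.26 in the lymphomas. These groups overlapped, with a difference of -0.31 (95% interval -1.14 to 0.52).

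The chains of the VCAM1 and fibronectin receptor overlapped as well. Itga4 was at 10.71, 10.68 and 10.72 in DP thymocytes and at 11.04, 10.85, 9.73 and 11.88 in lymphomas 1 to 4, so the lymphomas lay on both sides of the thymocytes. Its difference was 0.17 (95% interval -0.95 to 1.29). Itgb1, the common beta partner, was at 10.10, 10.20 and 9.87 in DP thymocytes and at 10.15, 9.78, 10.33 and 9.22 in the lymphomas, with a difference of -0.19 (95% interval -1.44 to 1.06). The sorted lymphoma had the highest Itga4 and the lowest Itgb1 of the 4 lymphomas.

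Cd44 and Selplg, which act in binding to hyaluronan and in rolling, gave overlapping groups too. Cd44 was at 10.56, 10.36 and 10.75 in DP thymocytes and at 11.29, 10.55, 9.97 and 10.17 in the lymphomas, a difference of -0.06 (95% interval -1.35 to 1.23). Selplg, which encodes PSGL-1, was at 13.12, 13.16 and 12.97 in DP thymocytes and at 13.74, 12.97, 12.84 and 14.23 in the lymphomas, a difference of 0.36 (95% interval -0.95 to 1.67). Intervals of this width leave room for changes of more than 2-fold in either direction for Itgb1 and Cd44.

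**Figure D2:**
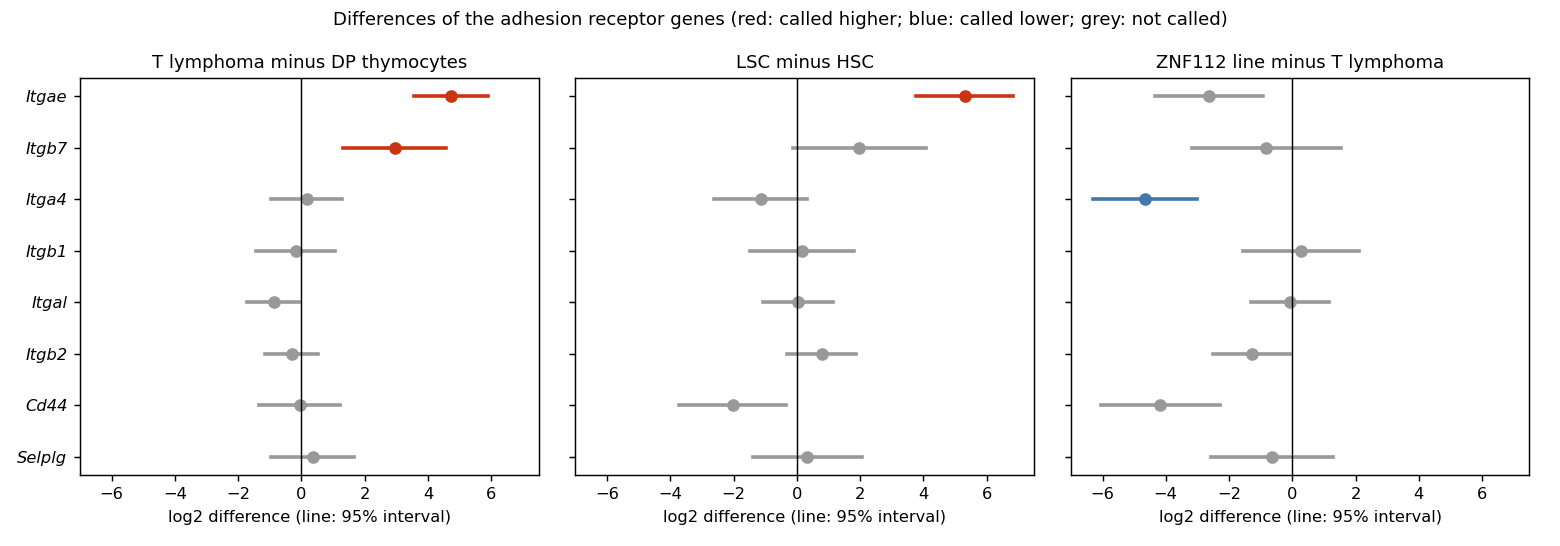
Log2 differences of the 8 genes in 3 comparisons, with 95% intervals from limma; red points were called higher, blue lower and grey not called. In T lymphoma minus DP thymocytes Itgae (4.73) and Itgb7 (2.94) were called, in LSC minus HSC Itgae (5.31), and in the ZNF112 line minus T lymphoma Itga4 (-4.66).

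The second comparison set leukaemic against normal cells sorted as Lin-Sca-1+c-kit+. Itgae rose in LSC, and the other 7 genes did not pass. This 1 call among 8 genes stands beside 10.3% of all tested genes called and 4.05% called higher, so the count of genes itself is near the background. Itgae was at 6.69 and 6.10 in HSC, around the filter level of 6.33, and at 11.82 and 11.59 in LSC. The groups were apart by almost 5 log2 units, and the 2 LSC arrays were close to each other for Itgae. In other genes these 2 arrays differed widely (correlation of their log2 values over the 12797 tested genes, 0.795). The difference was 5.31 ± 0.68 (SE, n = 2 and 2; limma, adjusted p = 0.00204). The second Itgae probe set rose by 5.16 ± 0.87 (limma, adjusted p = 0.00789), where 8.48% of all tested probe sets were called. With 2 arrays a group an exact permutation test cannot give less than 0.333. Fitted on the 4 arrays of the stem cell side alone, the same difference had a limma adjusted p of 0.139.

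Itgb7, its partner, was at 8.62 and 7.49 in HSC and at 9.54 and 10.52 in LSC. Both LSC arrays lay above both HSC arrays, with a difference of 1.98 ± 0.94 (SE) that did not pass (limma, adjusted p = 0.223). T cell markers were higher in LSC than in HSC for 8 of 10 markers by the same test, and granulocyte markers had means of 9.86 and 6.30 in LSC against 11.97 and 10.59 in HSC (7 markers). The part of these cell types in the Itgae difference was not tested.

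Whether the CD103 chains moved by different amounts on the 2 sides was tested directly. The difference of the 2 contrasts, T lymphoma minus DP thymocytes less LSC minus HSC, was -0.58 ± 0.86 (95% interval -2.52 to 1.36) for Itgae and 0.97 ± 1.18 (95% interval -1.70 to 3.63) for Itgb7. Of the 8 genes, 0 were called in this difference (limma; 8.88% of all tested genes were), with 0 at an unadjusted p under 0.05. Among their other probe sets, 1 of Itga4 was called in it (2.79 ± 0.59; limma, adjusted p = 0.0248), where 7.97% of all tested probe sets were called. The intervals are wide, and equal changes were not shown.

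Cd44 marks stem and memory lymphoid cells and binds hyaluronan in marrow. It was at 10.81 and 11.28 in HSC and at 10.39 and 7.65 in LSC, and both LSC arrays were below both HSC arrays. The difference was -2.02 ± 0.75 (limma, adjusted p = 0.127) and depended on the LSC array: it was -0.66 without LSC 2 and -3.39 without LSC 1 (limma, adjusted p = 0.00315). Itga4, which helps to hold stem cells to VCAM1 on stroma, was at 9.53 and 10.21 in HSC and at 9.46 and 7.99 in LSC. Its difference was -1.15 ± 0.65 (limma, adjusted p = 0.309). Another Itga4 probe set, dimmer on these arrays, fell by 2.72 (SE 0.47; limma, adjusted p = 0.00925), and 1 more was at -1.32 and not called.

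Itgb1 was at 8.01 and 9.32 in HSC and at 10.06 and 7.61 in LSC, with a difference of 0.17 (95% interval -1.47 to 1.80). LSC 1 was above and LSC 2 below both HSC arrays. Selplg was at 11.16 and 10.68 in HSC and at 9.90 and 12.61 in LSC, with a difference of 0.34 (95% interval -1.38 to 2.05), and here LSC 2 was the higher. The 2 LSC arrays thus stood on opposite sides of HSC for these 2 genes, in opposite orders.

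The LFA-1 chains overlapped between HSC and LSC. Itgal was at 9.89 and 8.60 in HSC and at 9.29 and 9.27 in LSC, a difference of 0.04 (95% interval -1.06 to 1.14). Itgb2 was at 11.08 and 9.32 in HSC and at 11.06 and 10.90 in LSC, a difference of 0.78 ± 0.48 (limma, adjusted p = 0.349). Without HSC 1 the Itgb2 difference was 1.66 and passed (limma, adjusted p = 0.0199), and without HSC 2 it was -0.10. HSC 1 had macrophage markers at 9.89 and HSC 2 at 6.91, and the part of such cells in these 2 genes was not tested.

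The third comparison set the ZNF112 line against T lymphoma. Itga4 fell in the line, and Cd44 was also far lower but missed the threshold. The line is 1 array, assumed in the fit to vary like the other groups. Of the 8 genes 1 was called, lower, where 1.16% of all tested genes were called and 0.617% were called lower. Itga4 was at 6.21 in the line, below the filter level and at percentile 42.2 of its array, against 11.04, 10.85, 9.73 and 11.88 in the lymphomas. The line was more than 3 log2 units under the lowest lymphoma, and the difference was -4.66 ± 0.73 (limma, adjusted p = 0.0217). No fold is given, since a signal at this level may be background. The call was lost without lymphoma 2 (limma, adjusted p = 0.0559), and the mean of all Itga4 probe sets gave -2.10 (limma, adjusted p = 0.0854). The 2 other tested Itga4 probe sets were at -2.21 (limma, adjusted p = 0.368) and -2.76 (limma, adjusted p = 0.0566), where 0.74% of probe sets were called.

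Cd44 was at 6.33 in the line, at the filter level, against 11.29, 10.55, 9.97 and 10.17 in the lymphomas. The difference was -4.17 ± 0.84 (limma, adjusted p = 0.0554), again with no fold against a signal that may be background. It passed under 4 of 16 alternatives, such as the fit on the 8 arrays of the T cell side (limma, adjusted p = 0.00706). A second Cd44 probe set was at -4.97 ± 1.18 (limma, adjusted p = 0.119) and 1 more at -1.57 ± 0.63 (limma, adjusted p = 0.399).

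Both CD103 chains were present in the line at levels between thymocytes and most lymphomas. Itgae was at 9.31, below all 4 lymphomas and above all 3 DP thymocyte samples, and its difference from the lymphomas was -2.63 ± 0.76 (limma, adjusted p = 0.181). Itgb7 was at 10.50, within the range of the lymphomas. Itgb2 was at 11.65, below all 4 lymphomas, with a difference of -1.28 ± 0.54 (limma, adjusted p = 0.389).

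The remaining 3 genes of the line lay close to the lymphomas. Itgal was at 11.43, Itgb1 at 10.15 and Selplg at 12.81, with differences of -0.08 (95% interval -1.31 to 1.15), 0.29 (95% interval -1.55 to 2.12) and -0.64 (95% interval -2.56 to 1.28). The line thus had low signal for the alpha chain of the VCAM1 receptor and a signal for its beta chain within the lymphoma range.

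**Figure D3:**
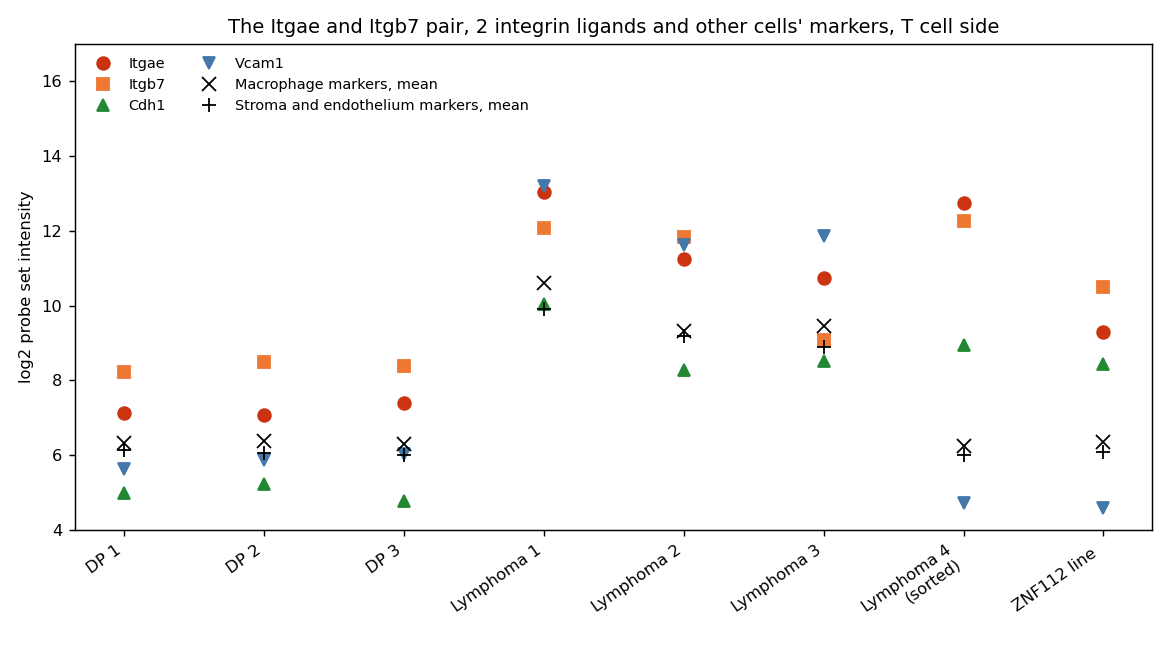
Log2 probe set intensity of Itgae, Itgb7 and the integrin ligands Cdh1 and Vcam1 on the 8 arrays of the T cell side, with the mean of the macrophage markers (12 genes) and of the stroma and endothelium markers (9 genes). In the sorted lymphoma Itgae (12.73), Itgb7 (12.27) and Cdh1 (8.96) stay high, while Vcam1 (4.72) and both marker means (6.25 and 6.01) are at the level of DP thymocytes or below.

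The fourth comparison set the sorted against the 3 unsorted lymphomas, again with 1 array on one side. Of the 8 genes, 0 were called (limma; 0.656% of all tested genes were), and 0 had an unadjusted p under 0.05. Itga4 (1.34), Itgb7 (1.27), Itgae (1.06) and Selplg (1.05) had the highest differences and Itgb1 (-0.87) the lowest. For Itga4, Itgb7, Itgb2 and Selplg the sorted lymphoma was above all 3 unsorted ones, and for Itgb1 it was below all 3. With 1 array against 3 such an order says little, and the share of all tested genes with it was not counted.

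Order over the 5 groups was read as log2 units above each array's median, since the sides have different medians. For Itgae the order was LSC (6.23 ± 0.18, SD), T lymphoma (5.22 ± 1.15), the line (2.60), HSC (0.89 ± 0.39) and DP thymocytes (0.52 ± 0.17). LSC and T lymphoma overlapped, as did HSC and DP thymocytes, while the line stood apart from both neighbours. For Itgb7 the order was T lymphoma (4.60 ± 1.54), LSC (4.56 ± 0.68), the line (3.79), HSC (2.55 ± 0.78) and DP thymocytes (1.69 ± 0.15). Only T lymphoma and LSC overlapped as neighbours, but lymphoma 3 (2.32) lay below the line and within the range of HSC (2.00 to 3.10). Both normal groups thus had the lowest means for both CD103 chains.

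Cd44 had another order, with HSC on top (5.54 ± 0.35), then DP thymocytes (3.87 ± 0.19), T lymphoma (3.78 ± 0.57), LSC (3.55 ± 1.95) and the line (-0.38). HSC and the line stood apart from their neighbours and the 3 groups between overlapped. Itga4 ran from HSC (4.37 ± 0.51) through T lymphoma (4.16 ± 0.94), DP thymocytes (4.02 ± 0.02) and LSC (3.25 ± 1.06) to the line (-0.49). For Itga4 the line stood apart from LSC. The highest LSC array (3.996) was only just below the lowest DP thymocyte array (4.004), and LSC overlapped T lymphoma (2.96 to 5.25).

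Itgal was highest in DP thymocytes (5.69 ± 0.02), apart from T lymphoma (4.79 ± 0.66), which overlapped the line (4.72). LSC (3.80 ± 0.03) and HSC (3.74 ± 0.89) had the lowest means for Itgal and overlapped. HSC (3.11 to 4.36) also overlapped T lymphoma (3.88 to 5.31) for Itgal. Itgb2 ran from DP thymocytes (6.55 ± 0.11) and T lymphoma (6.21 ± 0.37), which overlapped, to LSC (5.50 ± 0.13), the line (4.94) and HSC (4.69 ± 1.22). All neighbours overlapped for Itgb1, whose group means ran only from 3.16 to 3.45. Selplg ran from T lymphoma (6.73 ± 0.70) to HSC (5.41 ± 0.31), with DP thymocytes (6.40 ± 0.10) and the line (6.11) the only neighbours apart. After quantile normalization of all arrays the order of the group means was the same for Itgae, Itgb7, Itga4, Itgb2 and Selplg and changed for Itgb1, Itgal and Cd44.

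Across the 12 arrays, on that scale, the chains of known pairs followed each other to different degrees. Itgae and Itgb7 had a Pearson r of 0.88 (Spearman 0.86), and r was 0.90 over the 8 arrays of the T cell side. Itgal and Itgb2 had r = 0.82 (Spearman 0.81), while Itga4 and its partner Itgb1 had r = 0.02 (Spearman -0.08) and Itga4 and Itgb7 r = -0.01 (Spearman 0.22). Itga4 and Cd44, which do not pair, had r = 0.87 but a Spearman value of 0.50, with the line far below the other arrays on both. These are descriptions of 12 arrays that share groups and normalization, given without a test.

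**Figure D4:**
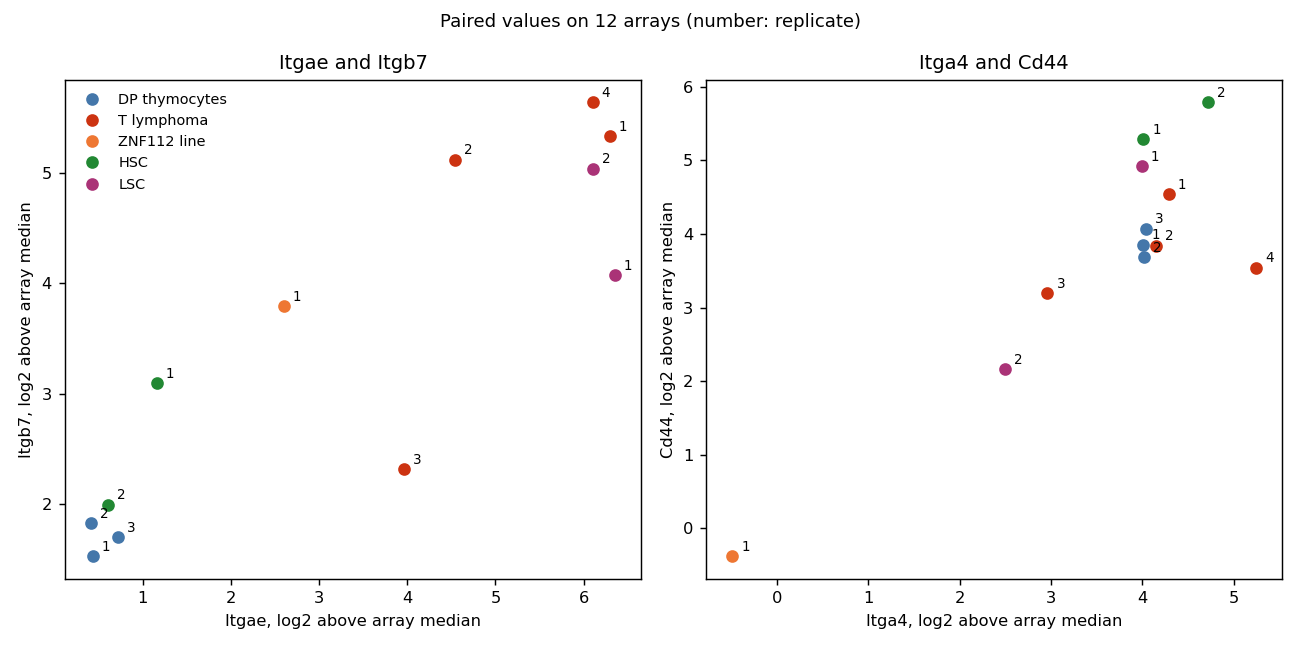
Log2 above the array median on 12 arrays for Itgae against Itgb7 (left) and Itga4 against Cd44 (right); each point is an array, coloured by group and numbered by replicate. On the left the normal groups are at the lower left and most leukaemic arrays at the upper right (r = 0.88); on the right the line is alone at the lower left (r = 0.87).

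By the rule of highest Pearson r over the 12 arrays, the genes most like Itgae were Cdkn2b, an inhibitor of the cell cycle kinases CDK4 and CDK6 (r = 0.97), the kinase gene Map3k8 (0.96) and Ddc (0.96), which encodes aromatic amino acid decarboxylase. Over the 8 arrays of the T cell side they were Nin (0.99), Cdkn2b (0.99) and Ahnak (0.99). Those most like Itgb7 were Gadd45g (0.96), Tspan5 (0.96) and Gbp2b (0.95). The genes most like Cd44 were Bckdhb (0.96), Skap2 (0.91), an adaptor in integrin activation, and Stx7 (0.91).

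Among the wider integrin family, CD103 chains made up 2 of the 3 calls in T lymphoma. This list and those below were also chosen with earlier results of these data known, so their counts do not test the lists. Of 12 tested alpha chains 1 was higher and 0 were lower, and of 7 tested beta chains 2 were higher and 0 were lower. Over all tested genes 3.37% were called higher and 3.18% lower. The median difference was 0.34 over the alpha chains and 0.47 over the beta chains, beside -0.02 over all tested genes. The other called chain was Itgb5, which pairs with the alpha V chain and binds vitronectin. It was at 8.68, 8.48 and 8.45 in DP thymocytes and at 10.17, 10.89, 9.94 and 10.60 in the lymphomas, with no overlap and a difference of 1.86 ± 0.38 (limma, adjusted p = 0.0198); the call was lost without DP thymocytes 1, 2 or 3 or lymphoma 2. Of its 3 other tested probe sets 0 were called, at 0.72 to 1.14. In LSC 2 of 12 alpha chains were higher, beside 4.05% of all tested genes. Of 7 beta chains 0 were called, with 1 of the 7 at an unadjusted limma p under 0.05. The 2 called alpha chains were Itgae and Itgav, the alpha V chain itself, at 10.34 and 10.14 in HSC and 11.54 and 12.79 in LSC. The Itgav difference was 1.92 ± 0.41 (limma, adjusted p = 0.0196), and it was lost without HSC 1 or HSC 2. Its 3 other tested probe sets disagreed, from 0.06 to 3.83, and 1 of them was called.

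**Figure D5:**
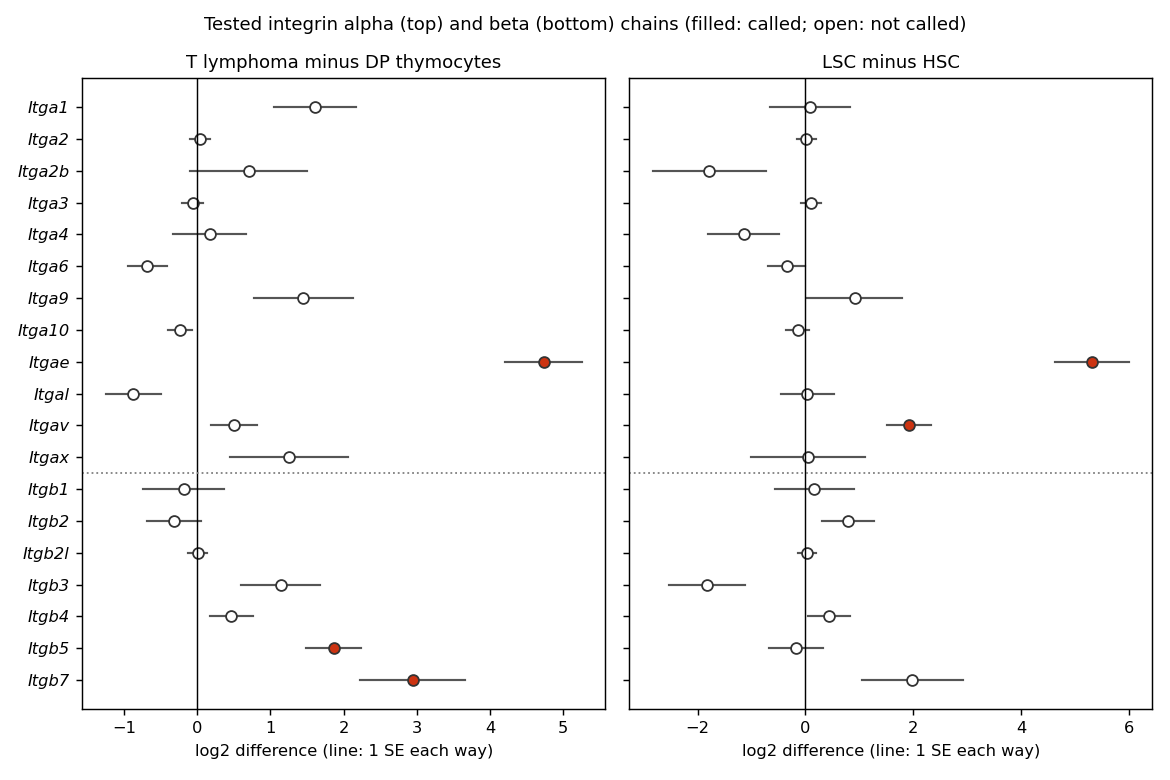
Log2 differences of the 12 tested integrin alpha chains and 7 tested beta chains in T lymphoma minus DP thymocytes and LSC minus HSC; lines are 1 SE each way, and filled points were called. Itgae is the highest point in both panels (4.73 and 5.31), with Itgb7 and Itgb5 called on the left and Itgav on the right.

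Of 14 tested integrin ligands 1 was higher and 1 lower in T lymphoma, where 3.37% of all tested genes were called higher and 3.18% lower. The median difference of the ligands was 1.25 in T lymphoma and -1.44 in the sorted against the unsorted lymphomas, beside -0.02 and 0.05 over all genes; macrophage and stroma markers moved the same way, and their part was not tested. Cdh1, which encodes E-cadherin, the ligand of CD103, was at 4.99, 5.22 and 4.78 in DP thymocytes, at 10.04, 8.27, 8.51 and 8.96 in lymphomas 1 to 4 and at 8.45 in the line. All lymphomas and the line were above all thymocyte samples by more than 3 log2 units, and the difference from thymocytes was 3.95 ± 0.48 (limma, adjusted p = 0.00140). The call held without any 1 of the 7 arrays, and the sorted lymphoma lay within the range of the unsorted ones. Icam2, a ligand of LFA-1, fell by 1.84 (SE 0.34; limma, adjusted p = 0.0115), from 12.07, 12.05 and 12.13 to 9.51, 10.16 and 10.31 in the unsorted lymphomas and 10.996 in the sorted one, and the call was lost without DP thymocytes 1, 2 or 3.

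Vcam1, the ligand of Itga4 with Itgb1, was singled out after its values were seen. It was at 5.63, 5.88 and 6.03 in DP thymocytes, at 13.21, 11.62 and 11.87 in the unsorted lymphomas, at 4.72 in the sorted lymphoma and at 4.57 in the line. The unsorted lymphomas were more than 5 log2 units above all other arrays of the T cell side, and the macrophage and stroma markers were high on the same 3 arrays, as given above. Its difference over the 4 lymphomas was 4.51 ± 2.11 (limma, adjusted p = 0.246). F11r, a ligand of LFA-1 at cell junctions, was the ligand called lower in the sorted than in the unsorted lymphomas (-2.42 ± 0.33; limma, adjusted p = 0.0223), and it was lost without lymphoma 3. In LSC 0 of 14 ligands were higher and 3 were lower, beside 4.05% and 6.21% of all tested genes, led by Emilin1, a matrix glycoprotein that fell by 3.28 (limma, adjusted p = 0.0161, lost without HSC 2, with its other probe set at -0.90 and not called), and Icam4, an erythroid adhesion molecule that fell by 2.65 (limma, adjusted p = 0.00140).

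Of 33 tested genes of integrin activation 0 were higher and 4 lower in T lymphoma, beside 3.37% and 3.18% of all tested genes. Their median difference was -0.36, beside -0.02 over all tested genes. The list holds genes that raise integrin affinity and genes that restrain it, such as Sipa1 and Sharpin. Rasgrp1, an exchange factor for Ras and Rap downstream of the T cell receptor, fell by 2.09 (SE 0.48; limma, adjusted p = 0.0333), with 3 of 3 other probe sets also called lower. Apbb1ip, which encodes the Rap1 effector RIAM, fell by 1.73 (SE 0.43; limma, adjusted p = 0.0472), while its other tested probe set was at -0.68 and not called. Rasgrp1 and Apbb1ip were each lost without any 1 of DP thymocytes 1 to 3 or lymphomas 1 to 3. In LSC 3 of the 33 were higher and 2 lower, where 4.05% of all tested genes were called higher and 6.21% lower. The T cell adaptors Skap1 (5.40 ± 0.55, limma, adjusted p = 0.000742) and Fyb (1.96 ± 0.24, limma, adjusted p = 0.00171) rose together with T cell markers. The parvins Parvb (-2.26) and Parvg (-1.79) fell, but the other tested Parvg probe set was at -1.02 and not called.

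Of 17 tested genes of the TGF-beta input to Itgae, a cytokine pathway known to induce CD103, 1 was higher and 0 were lower in T lymphoma. Over all tested genes 3.37% were called higher and 3.18% lower. The called gene was Runx3, a transcription factor of the cytotoxic lineage. It was at 6.40, 6.17 and 6.59 in DP thymocytes and 9.59, 10.19, 7.61 and 11.48 in lymphomas 1 to 4. The groups were apart, with lymphoma 3 again the lowest, and the difference was 3.33 ± 0.74 (limma, adjusted p = 0.0278). It was lost without DP thymocytes 1, 2 or 3 or lymphomas 1 or 2. In LSC 0 of the 17 were called, beside 10.3% of all tested genes, with 3 at an unadjusted limma p under 0.05. Runx3 was at 7.95 and 8.44 in HSC and 10.63 and 9.84 in LSC.

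For selectins and the enzymes that build their glycans, Selplg included, 0 of 19 tested genes were called in T lymphoma. Over all tested genes 6.55% were called, and 6 of the 19 had an unadjusted limma p under 0.05. In LSC 1 was higher and 1 lower, beside 4.05% and 6.21% of all tested genes. Fut7, the fucosyltransferase that arms PSGL-1 for selectin binding, fell by 2.01 in LSC (SE 0.34; limma, adjusted p = 0.00774), from 7.35 and 7.25 to 5.53 and 5.05. The galactosyltransferase gene B4galt1 rose by 1.91 (SE 0.41; limma, adjusted p = 0.0194) and was lost without HSC 2. Glycam1, a mucin that carries L-selectin ligands on high endothelium, was lower in the sorted lymphoma by 5.89 (limma, adjusted p = 0.0270), at 4.88 against 10.87, 9.28 and 12.19 in the unsorted ones, and was lost without lymphoma 1.

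Of 13 tested genes on the list of Cd44 and its partners, Cd44 itself among them, 0 were higher and 1 was lower in T lymphoma. Over all tested genes 3.37% were called higher and 3.18% lower. Esrp2, a splicing factor that acts on Cd44 transcripts in epithelium, fell by 2.15 (SE 0.21; limma, adjusted p = 0.000436), from 9.05, 9.01 and 8.26 to between 6.55 and 6.74, and was called without any 1 of the 7 arrays. Of 23 other adhesion receptors 1 was higher and 1 lower in T lymphoma, beside those same shares of all tested genes. Cd6, the T cell receptor for ALCAM, fell by 5.17 (SE 0.24; limma, adjusted p = 2.88e-06), from 12.43, 12.51 and 12.37 to between 6.67 and 7.69. The tetraspanin Cd82 rose by 3.17 (SE 0.61; limma, adjusted p = 0.0150), but its other probe set was at -0.09 and the call was lost without DP thymocytes 1, 2 or 3.

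In LSC 3 of these 23 receptors were higher and 3 lower, beside 4.05% and 6.21% of all tested genes. Thy1 (4.50 ± 0.95; limma, adjusted p = 0.0182) and Cd2 (4.21 ± 0.78; limma, adjusted p = 0.0106), both also on the T cell marker list, rose and were lost without HSC 2. Esam, an adhesion molecule of stem cells and endothelium, fell by 2.14 (limma, adjusted p = 0.0351) and was lost without HSC 1, HSC 2 or LSC 2. In the line 1 of the 23, Cd48, a ligand of CD2 family receptors, was lower than in the lymphomas, with a difference of -1.60 (limma, adjusted p = 0.0344), and it was lost without lymphomas 1, 2 or 3.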

How the data were processed

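Amplified RNA from 12 mouse samples was hybridised to Affymetrix Mouse430 2.0 arrays, 1 per sample, per the labels' protocols. The authors deposited 1 linear intensity per probe set and array, made with RMA per the submitters' processing notes, which give no version. Scanner output was not used here, and the genome build behind the annotation is not given in the sources used here. Of 45101 probe sets, 34945 had 1 gene symbol in the platform annotation, 932 had several and 9160 had none. The log2 of the deposited intensity was taken. A gene was tested if its probe set exceeded log2 6.33 (the median of all values) in at least 2 arrays. The two-sided tests came from limma 3.58.1 (lmFit, then eBayes; R 4.3.3) with a mean per group over all 12 arrays and 1 shared spread; calls had a Benjamini-Hochberg adjusted p under 0.05. A group of 1 array took its spread from the others. The fit was also run on simulated data in which all arrays of a gene had 1 spread. That run did not test the unequal spreads of the real groups (0.153 in DP thymocytes, 1.02 in LSC). Replicates are biological per the labels, some of them pools of mice. Arrays hold no read depth, and precision is limited by how many there are.

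The 5 contrasts set T lymphoma against DP thymocytes, LSC against HSC, these 2 contrasts against each other, the line against T lymphoma, and the sorted against the unsorted lymphomas. The 8 genes and the lists were chosen with earlier results of these data known. From each list and contrast, up to 2 called genes with the largest rise and up to 2 with the largest fall could be named, together with the 3 genes most correlated with each of the 8. Alternatives changed the arrays in the fit, array weights, normalization, filter, pseudocount, choice of probe set, a replicate block, and each array left out in turn.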

Additional observations from a re-analysis of the deposited data

Results flagged for a closer look

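Itgb7 in T lymphoma was set apart by 1 array. Lymphoma 3, at log2 9.09, lay below the others (11.82 to 12.27), and its gap to the nearest of them was 0.86 of the whole range of the group, above Dixon's 95% critical value for 4 samples. About 1 group in 20 is set apart in this way by chance. B cell markers were also apart on this array (8.97 against 6.09 to 6.80, mean log2 of 7 markers). The same array was the lowest lymphoma for Itgae, Itga4, Itgal, Itgb2, Cd44 and Selplg as well.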

How the results depend on the processing

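Itgae was called in T lymphoma under 20 of 20 alternatives (4.36 to 5.53) and in LSC under 13 of 16 (5.02 to 5.60); in LSC it was not called with only the arrays of the contrast or of the side, or with array weights. In T lymphoma the number of the 8 genes called, 2 as reported, was 1 with no filter and 1 with the replicate block, where Itgb7 was at 2.63 (limma, adjusted p = 0.0937), and 1 to 2 with 1 array left out; with array weights Itgal was called too (limma, adjusted p = 0.0258). In LSC the count of 1 became 0 with only the arrays of the contrast, only the arrays of the side, or array weights, and 1 to 2 with 1 array left out. For the difference of the contrasts 0 to 1 were called with 1 array left out. For the line the count of 1 became 0 with only the arrays of the contrast or with the mean of all probe sets, 2 with the arrays of the side, quantile normalization or the stricter filter, 4 with array weights, and 0 to 1 with 1 array left out. The causes were not tested. Over all genes the counts ranged from 320 to 3531 in T lymphoma (838 as reported), 0 to 2716 in LSC (1313), 251 to 2444 for the difference (1136), 4 to 1077 for the line (148) and 0 to 1013 for the sorted lymphoma (84).

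Signs turned only for differences that were not called. In T lymphoma Cd44 was at 0.012 with quantile normalization, 0.089 with the mean of all probe sets and 0.047 with the replicate block, under which Itga4 was at -0.16 and Itgb1 at 0.031; Itgb2 was at 0.024 with the sorted lymphoma alone. In LSC Itgal was at -0.051 with quantile normalization and -0.19 with the mean of all probe sets. For the difference of the contrasts Selplg was at -0.034 with array medians subtracted and -0.24 with the replicate block. For the line Itgal was at 0.067 with the mean of all probe sets and 0.044 against the unsorted lymphomas. With 1 array left out, values in T lymphoma ran from -0.33 to 0.12 for Cd44, -0.16 to 0.55 for Itga4 and -0.34 to 0.031 for Itgb1. In LSC they ran from -1.06 to 1.39 for Itgb1, -0.61 to 0.68 for Itgal, -0.10 to 1.66 for Itgb2 and -1.02 to 1.69 for Selplg. For the difference of the contrasts they ran from -1.33 to 1.38 for Selplg and -1.58 to 0.87 for Itgb1, and for the line from -0.36 to 0.093 for Itgal. Same-numbered samples on the T cell side showed no more than a shared number (correlation of their deviations -0.07 to 0.03). On the stem cell side the correlation was 0.10. With 2 arrays a group the deviations mirror each other, so that value cannot show whether samples were paired. The replicate block was not read as a pairing. The number of arrays, 2 to 4 in a group and 1 for the line, limits what could be detected.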
